A study of Mus musculus with 12 samples.

Results

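Mitochondrial ribosomal protein genes were examined in tibialis anterior muscle of mice with and without an intact Smyd1 gene. The genes were chosen by symbol alone, as every row whose symbol starts with Mrpl or Mrps followed by a digit. This gave 77 of the 23923 genes in the files, of which 48 are large-subunit (Mrpl) and 29 small-subunit (Mrps) genes by symbol. RNA came from 12 mice aged 6 weeks of the mixed strain C57BL6/J;129S1/SvImJ, with 1 library per mouse. The study states that its experiments after the first histology used male tissues only. The 6 controls were Myf6 cre/+; Smyd1 flox/+, and the 6 Smyd1 CKO mice were Myf6 cre/+; Smyd1 flox/-. Per the study's methods the mice also carried a Rosa26 YFP allele. All 12 mice therefore carried Cre and 1 floxed Smyd1 allele, and the groups differed in the other Smyd1 allele. Cre was expressed from the Myf6 gene, which is active in muscle fibres from about birth, so that cells other than fibres in CKO muscle hold, by design, 1 null and 1 unrecombined floxed allele. Smyd1 encodes a methyltransferase of heart and skeletal muscle.

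The mitochondrial ribosome (mitoribosome) makes only the few proteins encoded by mitochondrial DNA, all of them subunits of respiratory chain complexes and ATP synthase. Its RNAs come from mitochondrial DNA, whereas every one of its proteins is encoded in the nucleus, made in the cytosol and imported. Some of these proteins descend from bacterial ribosomal proteins, and others were acquired by mitochondria. Muscle fibres are rich in mitochondria and their ribosomes take up these proteins in fixed proportions.

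Expression was given as FPKM, a fragment count divided by transcript length and by library size, so that levels of different genes can be compared. Every one of the 77 members reached 0.1 FPKM in 6 or more libraries, the limit for testing. How many reads each library holds is unknown. Relative depth, judged by the steps between low FPKM values, ran from 0.984 in CKO 5 to 1.77 in CKO 1, with control 1 set to 1. Control 1 stood apart from the other controls. Its FPKM summed to 156610 over all genes, against 110124 to 133316 in the other controls and 120041 to 138454 in the CKOs. Its correlations with the other controls (0.946 to 0.954, over log2 values of genes) were lower than those among the other 5 controls (0.961 to 0.968), and CKO 5 stood similarly apart from the other CKOs (0.943 to 0.953). Counts, medians and the members nearest the threshold are therefore given with and without control 1. Smyd1 itself did not pass the test. Controls averaged 37.4 ± 5.64 FPKM and CKOs 34.1 ± 4.37 FPKM (SD, n = 6 each, limma adjusted P = 0.545). Its log2 fold change was -0.13 as deposited, -0.32 after the median-ratio scaling described below (limma adjusted P = 0.0797) and -0.29 when control 1 was left out of the scaled values (adjusted P = 0.0793). FPKM per gene do not resolve the floxed exons, so this value does not check the labels, and CKO below means the libraries labelled so. The 8 fast muscle markers summed to between 23104 and 38688 FPKM in every library, and the 3 heart markers summed to at most 3.22 FPKM. Some markers of other cells moved with the groups: 5 of 6 slow muscle markers were higher in CKOs at an unadjusted P below 0.05, beside 18.1% of all tested genes (summed 14.1 to 46.0 FPKM in controls, 20.2 to 271 FPKM in CKOs), as were 2 of 3 tested adipocyte, 3 of 5 Schwann cell and both satellite cell markers. No endothelial marker was (summed 25.7 to 36.9 FPKM in controls and 25.1 to 43.3 FPKM in CKOs), and no tested macrophage, erythroid or heart marker. Of 5 fibroblast markers 1 was higher. Of the 8 fast muscle markers 1 was higher and 1 lower, the latter beside 1.76% of tested genes. These counts are of values as deposited. The part of these cells in the results below was not tested.

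The members differed 191-fold in level. Their median was 6.53 FPKM (mean over the 12 libraries), against 1.65 FPKM over all tested genes, and 70 of the 77 lay between 1 and 20 FPKM. Large-subunit genes had a median of 6.47 FPKM and small-subunit genes one of 6.53 FPKM, close to each other. The highest member was Mrpl42, a large-subunit protein specific to mitochondria, with a lowest value of 31.7, a median of 33.6 and a highest value of 47.8 FPKM in the 6 controls and of 24.4, 32.3 and 44.8 FPKM in the 6 CKOs. Next came Mrpl33 at 28.0, Mrps21 at 26.9, Mrpl18 at 24.7 and Mrpl30 at 23.0 FPKM (means over the 12 libraries). Mrpl33, Mrps21, Mrpl18 and Mrpl30 all have bacterial counterparts. Values of these 5 genes overlapped from library to library, and control 1 held the highest value of each in the control group. The order of the members by level was nearly the same in both groups: 9 of the 10 highest in controls were among the 10 highest in CKOs, and 7 of the 77 moved by more than 5 places.

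**Figure D1:**
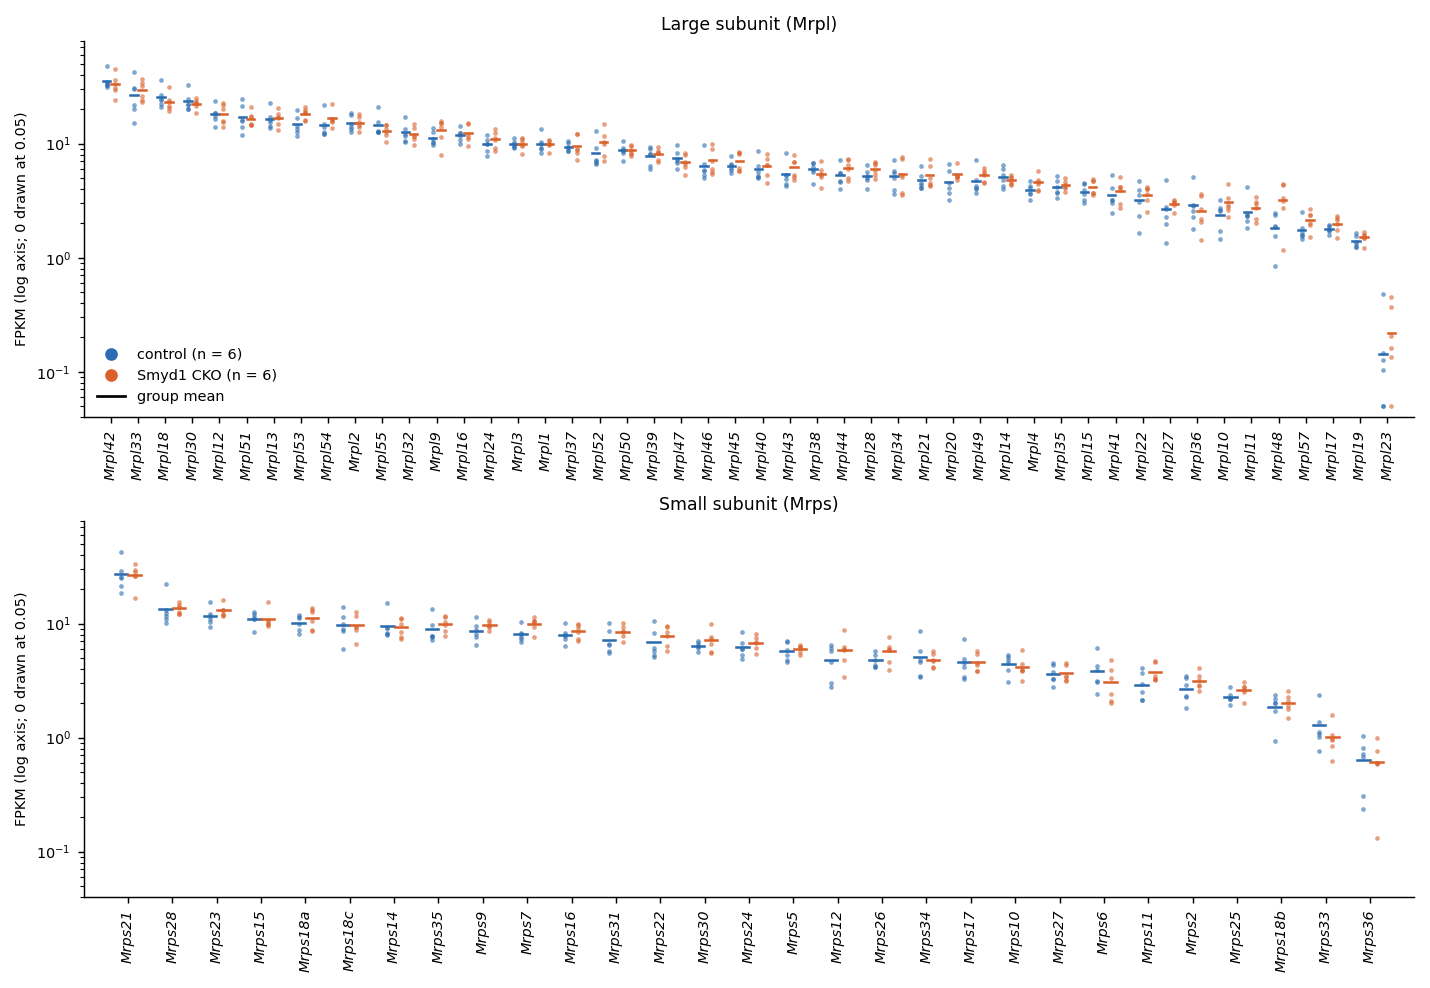
FPKM of the 77 mitochondrial ribosomal protein genes in each library on a log axis, ordered by mean level, with large-subunit genes above and small-subunit genes below; points are mice and short lines group means (n = 6 a group). The control and CKO points overlap for every gene, and Mrpl23 lies far below the others.

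At the low end stood Mrpl23, whose bacterial counterpart sits at the exit of the tunnel through which the new protein leaves. It was at 0 in control 2, control 5 and CKO 2 and reached at most 0.477 FPKM in controls and 0.449 FPKM in CKOs. Mrps36 followed with medians of 0.697 FPKM in controls and 0.602 FPKM in CKOs. This protein, named as a ribosomal protein, is now regarded as a subunit of the alpha-ketoglutarate dehydrogenase complex. Then came Mrps33 (1.15 FPKM), Mrpl19 (1.45 FPKM) and Mrpl17 (1.88 FPKM, means over the 12 libraries). The 3 lowest members share much of their sequence with other genes. Of the 50-base words in the Mrpl23 transcript 66.7% also occur in another annotated transcript, as do 36.2% for Mrps36 and 20.98% for Mrps33, against 1.56% for Mrpl19 and none for Mrpl17. The authors discarded reads that mapped to several places, so FPKM of such genes are uncertain. The 7 members with over 20% of words shared had a median of 1.95 FPKM and none was above 4.30 FPKM. The 41 members that share no word had a median of 7.86 FPKM. What the discarded reads contributed to these levels was not tested.

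The first question was whether the RNAs of mitochondrial ribosomal proteins differed between control and CKO muscle. As deposited, 57 of the 77 members had a higher mean in CKOs, yet no member passed the test, limma at an adjusted P below 0.05 (Benjamini-Hochberg over the 12695 genes tested). Over all tested genes 2.29% passed it, 257 higher and 34 lower. At an unadjusted P below 0.05, 4 members were higher in CKOs, beside 18.1% of all tested genes, and 0 were lower, beside 1.76%. The median log2 fold change of the members (CKO over control, on the log2(FPKM + 0.1) scale) was 0.13, below the median of 0.18 over all tested genes. For no member did the 6 control and 6 CKO values fail to overlap, while this held for 2.42% of tested genes. As a group the members thus lay slightly on the CKO side, but less far than the typical gene, and their share of nominal calls was below the background.

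As deposited, 9894 of the 12695 tested genes had a higher mean in CKOs. Whether whole libraries were shifted or the RNA of many genes differed was not tested. Median-ratio scaling divides each library by the median ratio of its genes to their average over libraries, and it set the median over all tested genes to 0.01. On that scale the direction of the members turned: 25 of the 77 were higher in CKOs and their median log2 fold change was -0.06. Again no member passed an adjusted P of 0.05 in limma, beside 1.47% of all tested genes. At an unadjusted P below 0.05, 0 members were higher, beside 6.62% of tested genes, and 12 were lower, beside 7.44%. The 12 comprised 11 large-subunit genes and 1 small-subunit gene, namely Mrpl55, Mrpl47, Mrpl18, Mrpl30, Mrpl38, Mrpl14, Mrpl50, Mrpl42, Mrpl32, Mrpl1, Mrpl3 and Mrps6. Whether that split differs from the 48 to 29 make-up of the list was not tested, and with control 1 left out 7 members were lower at this threshold, all of the large subunit, beside 9.09% of tested genes. No member separated the groups after scaling, against 1.53% of tested genes. In muscle as a whole tissue, fewer cells of a type and less RNA per cell cannot be told apart.

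**Figure D2:**
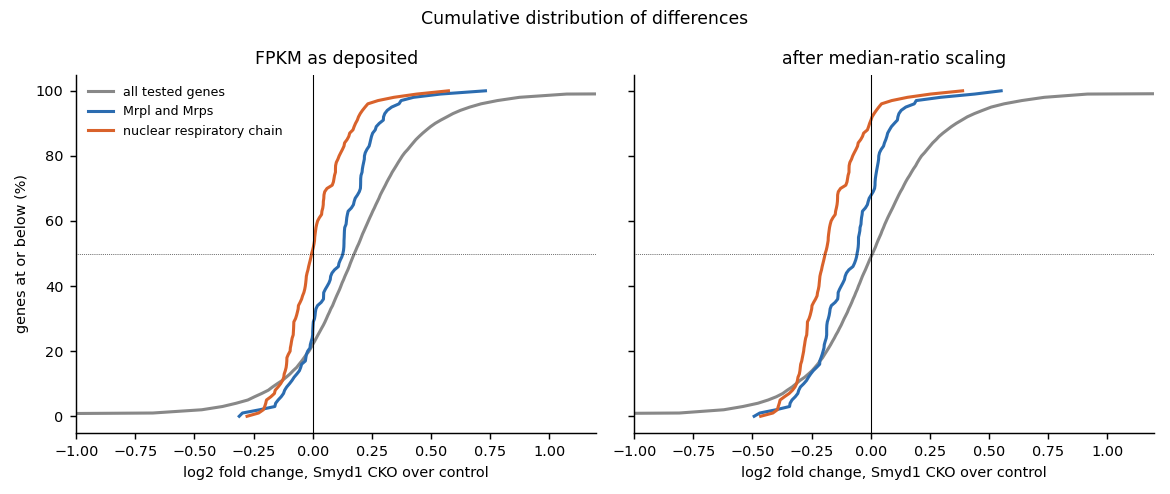
Cumulative share of genes (%) by log2 fold change, CKO over control, for all 12695 tested genes, the 77 members and 77 nuclear respiratory chain genes, as deposited and after median-ratio scaling. The curve of the members lies to the left of that of all genes over most of its course and to the right of that of the respiratory chain genes, and scaling moves all 3 curves to the left.

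Leaving out control 1 moved the counts. As deposited, 67 of the 77 members were then higher in CKOs with a median log2 fold change of 0.19, beside 0.22 over all tested genes. At an unadjusted P below 0.05, 22 members were higher, beside 27.2% of tested genes, and 0 were lower, beside 1.79%. Mrpl53 and Mrps7 then passed the adjusted threshold, beside 9.11% of tested genes. After median-ratio scaling without control 1, no member passed it, beside 2.88% of tested genes, and 0 were higher at an unadjusted P below 0.05, beside 8.71%. On that scale 31 of the 77 were higher in CKOs and the median was -0.04. Control 1 held the highest value of the 12 for 41 of the 77 members (53.2%), and for 20.1% of all tested genes. After scaling it still held the highest value for 31 members, and the share of all tested genes on that scale was not computed. That count is therefore not read as a result about the members. Its 5 fibroblast markers summed to 801 FPKM against 213 to 270 in the other controls and 282 to 473 in CKOs, and its 4 macrophage markers to 19.6 FPKM against 5.78 to 8.16 in the other controls and 6.95 to 12.3 in CKOs. Its 8 fast muscle markers summed to 38688 FPKM, against at most 31458 in the other controls and 31138.5 in CKOs. Its 3 erythroid markers summed to 49.3 FPKM, against at most 34.0 and 39.2. Its sums of slow muscle, endothelial, adipocyte, Schwann cell, satellite cell and heart markers were not the highest of the 12. The part of any of these cells in the member values was not tested.

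The intervals show the precision of the comparison together with the size of the differences. For 75 of the 77 members the 95% interval of the fold change as deposited lay within 2-fold in either direction, beside 83.5% of all tested genes, and for 76.6% of members it lay within 1.5-fold, beside 43.1% of tested genes. After scaling 89.6% of members lay within 1.5-fold, beside 54.0% of tested genes. Of the tested nuclear respiratory chain genes, 88.3% lay within 1.5-fold as deposited and 80.5% after scaling. The exceptions to the 2-fold bound were Mrpl23 and Mrpl48 on both scales. Within groups the members varied by a median SD of 0.27 on the log2 scale, against 0.32 over all tested genes. The members had a higher median level (6.53 FPKM, against 1.65 FPKM over all tested genes). No background matched for level was taken for these shares and SDs. Mrpl3, which reaches toward the peptidyl transferase centre, varied least (SD 0.14), and Mrpl23 (0.91), Mrps36 (0.73) and Mrpl48 (0.61) varied most.

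**Figure D3:**
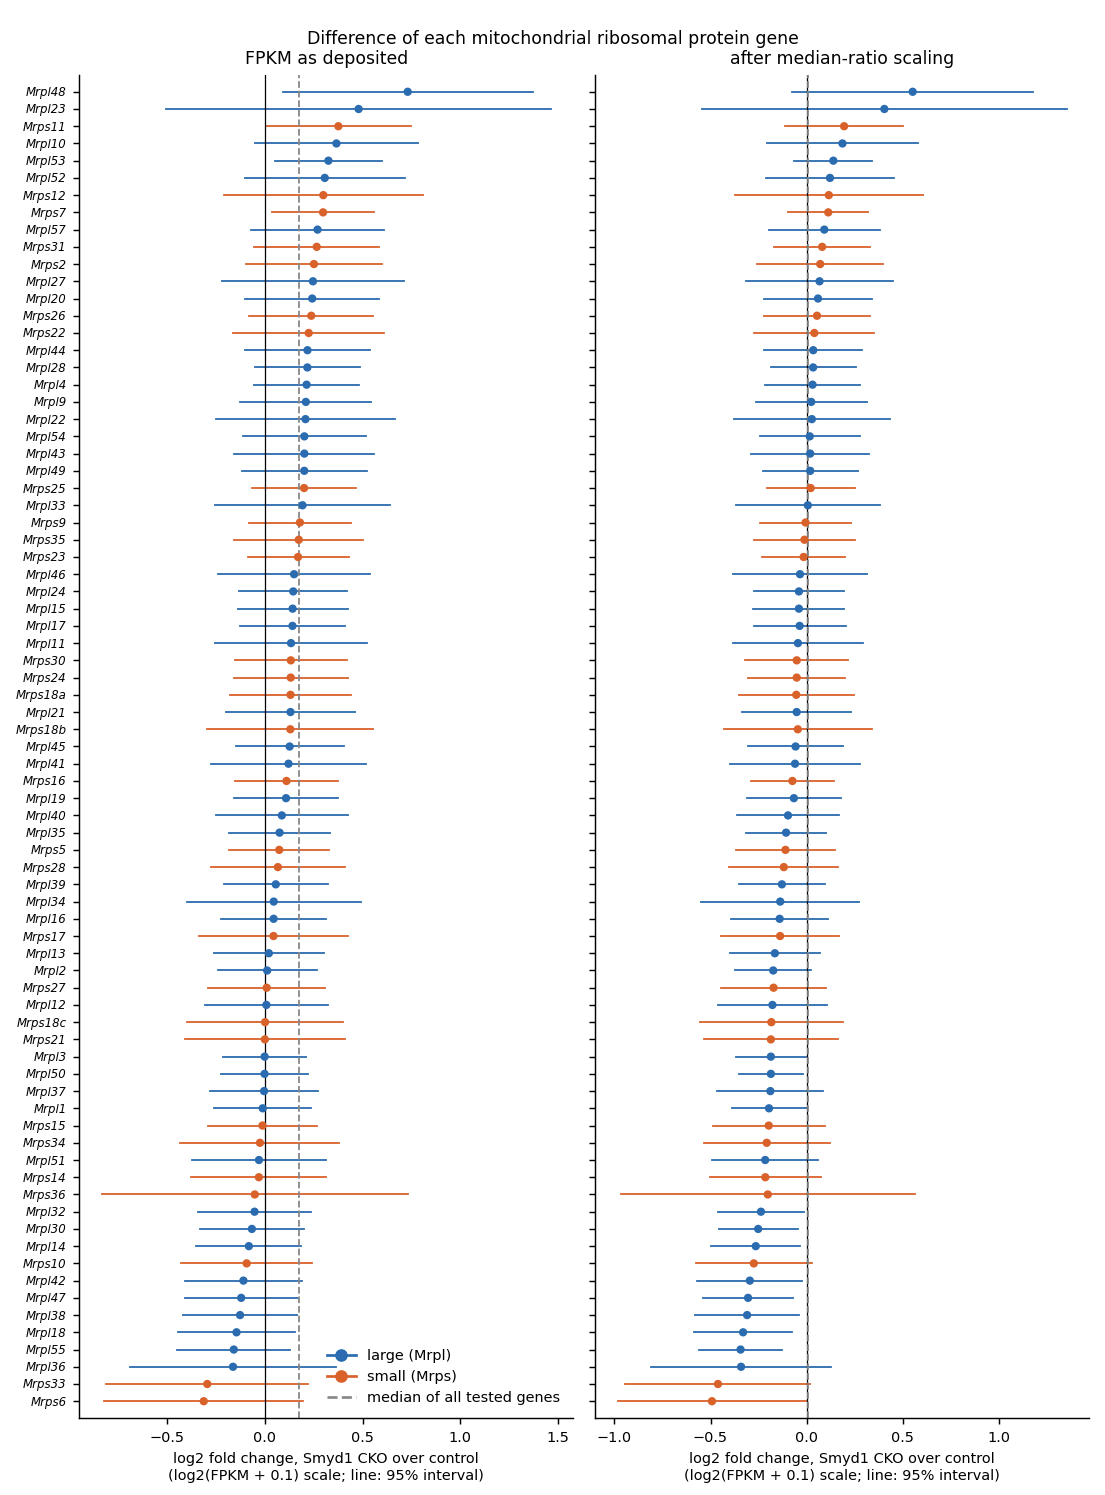
Log2 fold change, CKO over control, of each of the 77 members with its 95% interval from limma, as deposited and after median-ratio scaling; the dashed line is the median over all tested genes. Most intervals include 0 on both scales, and the whole column of points moves left on scaling.

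Among large-subunit genes the smallest P as deposited belonged to Mrpl53, which encodes a protein found in mitochondrial ribosomes and not in bacterial ones (GRCm38 chr6:83109040-83109939, plus strand). Its control values ran from 11.7 over a median of 13.9 to 19.8 FPKM and its CKO values from 15.7 over 18.8 to 20.97 FPKM. Every CKO value lay above 4 of the 6 controls, and control 1 was the highest control. Its log2 fold change was 0.33 ± 0.13 (SE, limma adjusted P = 0.179), 0.41 without control 1 (adjusted P = 0.0319) and 0.14 after scaling (adjusted P = 0.563), and it passed with sample weights in all libraries (0.38, adjusted P = 0.0357).

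Mrpl48 encodes a mitochondria-specific protein of the central protuberance, the crest of the large subunit that faces the small one. It ran from 0.842 over 1.89 to 2.47 FPKM in controls and from 1.16 over 3.23 to 4.47 FPKM in CKOs. In 5 CKOs it was above every control, and CKO 6 lay within the control range. Its log2 fold change of 0.73 ± 0.30 (SE, limma adjusted P = 0.193) was the largest of any member and was 0.81 without control 1 (adjusted P = 0.106) and 0.55 after scaling (adjusted P = 0.431).

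Of the small-subunit genes, Mrps7 and Mrps11 had the smallest P as deposited. Mrps7 descends from the bacterial S7 protein, which organizes the head of the small subunit (GRCm38 chr11:115603925-115608036, plus strand). It ran from 6.85 over 7.92 to 10.4 FPKM in controls and from 7.59 over 10.5 to 11.54 FPKM in CKOs. Only CKO 4 lay below 8.31 FPKM, the value of control 3, the second highest control. The log2 fold change was 0.30 ± 0.12 (SE, limma adjusted P = 0.192), 0.37 without control 1 (adjusted P = 0.0492) and 0.11 after scaling (adjusted P = 0.678). Mrps11, of the platform on which messenger RNA leaves the decoding site, ran from 2.13 to 4.08 FPKM in controls and from 3.21 to 4.67 FPKM in CKOs. Control 1 and control 3 lay within the CKO range and the other 4 controls below it. Its log2 fold change was 0.38 ± 0.17 (SE, limma adjusted P = 0.243) as deposited, 0.48 without control 1 (adjusted P = 0.0729) and 0.20 after scaling (adjusted P = 0.605).

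On the other side, Mrpl55 had the smallest P after scaling. It is the mitochondrial relative of the bacterial L31 protein (GRCm38 chr11:59202486-59206134, plus strand). After scaling it ran from 13.99 over 14.6 to 18.9 FPKM in controls and from 10.03 over 11.9 to 14.2 FPKM in CKOs. CKO 2 was the only CKO within the control range. The log2 fold change was -0.34 ± 0.10 (SE, limma adjusted P = 0.116) after scaling, -0.28 when control 1 was left out as well (adjusted P = 0.112) and -0.16 as deposited (adjusted P = 0.526). Of the alternatives run it passed in 1, with -0.34 (adjusted P = 0.0439), where the deposited values were corrected for transcript length and GC content, and not when that correction was fitted with the replicate block. Mrpl47, of the protein family that rings the tunnel exit, ran after scaling from 6.73 to 8.75 FPKM in controls and from 5.10 to 8.11 FPKM in CKOs, a log2 fold change of -0.30 ± 0.11 (SE, limma adjusted P = 0.212). In 4 of the 6 CKOs it was below every control. Mrpl18, whose bacterial counterpart binds 5S ribosomal RNA, ran from 23.0 to 32.4 FPKM in controls and from 17.8 to 30.3 FPKM in CKOs after scaling, a log2 fold change of -0.33 ± 0.12 (SE, limma adjusted P = 0.212). Apart from CKO 2, each CKO was below every control. Without control 1 the scaled differences were -0.27 for Mrpl47 and -0.28 for Mrpl18.

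Mrps6, which pairs with an S18 protein on the platform, and Mrps33, a mitochondria-specific protein, had the most negative differences as deposited. Mrps6 ran from 2.41 over 3.53 to 6.14 FPKM in controls and from 2.01 over 2.86 to 4.76 FPKM in CKOs, a log2 fold change of -0.31 ± 0.24 (SE, limma adjusted P = 0.471). Mrps33 ran from 0.761 over 1.10 to 2.38 FPKM in controls and from 0.626 over 0.958 to 1.59 FPKM in CKOs, with -0.29 ± 0.24 (SE, limma adjusted P = 0.505). Without control 1 the differences were -0.16 for Mrps6 and -0.11 for Mrps33. After scaling the differences were -0.49 for Mrps6 (limma adjusted P = 0.353) and -0.46 for Mrps33 (adjusted P = 0.378). When control 1 was left out of the scaled values they were -0.39 for Mrps6 and -0.32 for Mrps33. The groups overlapped over most of their range for each gene.

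**Figure D4:**
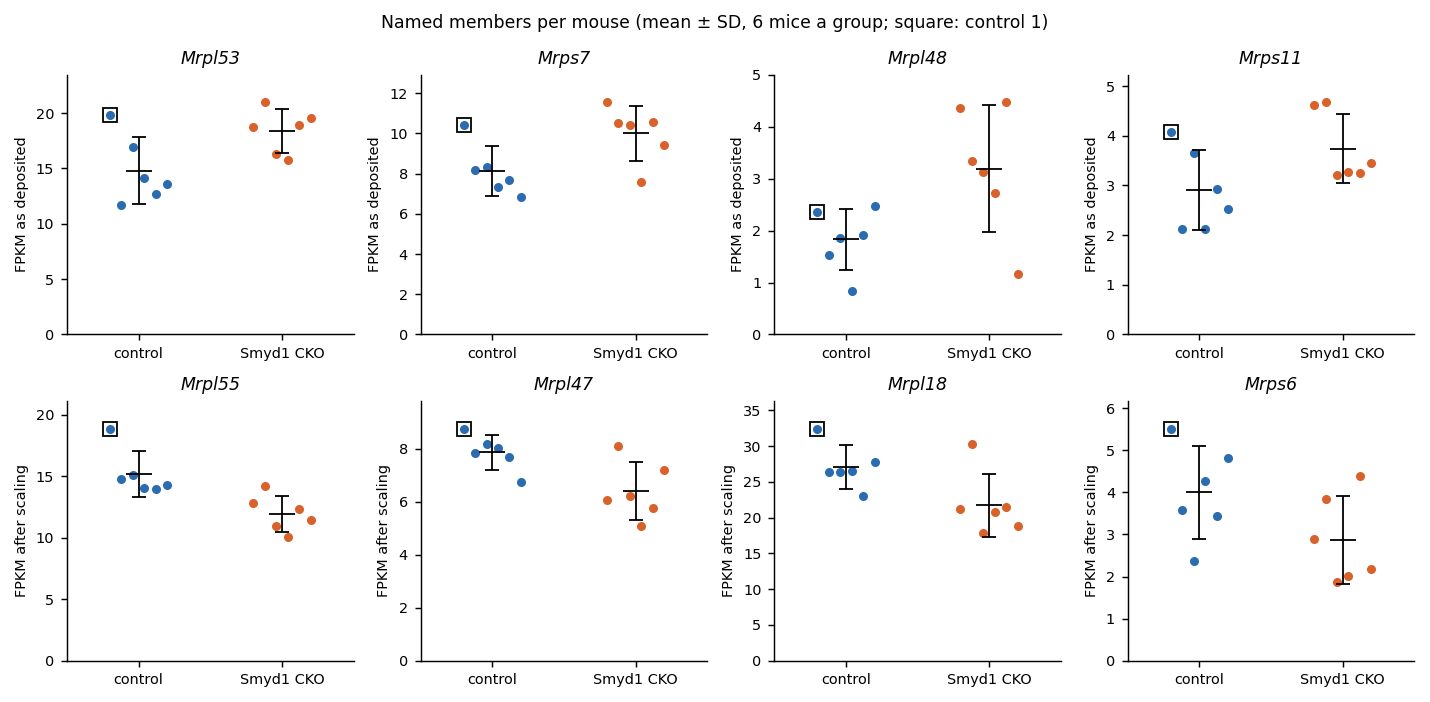
FPKM per mouse of 8 members: as deposited the 4 with the smallest P values (Mrpl53, Mrps7, Mrpl48 and Mrps11), and after median-ratio scaling the 3 with the smallest P values (Mrpl55, Mrpl47 and Mrpl18) and Mrps6, the 1 small-subunit gene lower at an unadjusted P below 0.05; bars are mean ± SD (n = 6) and the square marks control 1. The groups overlap in every panel.

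The promoters of 4 of these genes are shown, a choice made after their values and letters were seen: Mrpl53 and Mrpl55 had the smallest P as deposited and after scaling, and Mrps7 and Mrpl18 hold a motif match. Each runs from 250 bases before to 30 bases after the gene start given by RefSeq (build GRCm38.p6), 5′ to 3′ on the strand of the gene. Capitals mark an exact match, on either strand, to the ETS motif CCGGAAGT, the NRF1 motif GCATGCGC or the YY1 motif AAGATGGC. These 3 factors are known to bind many promoters of nuclear genes for mitochondrial proteins. Mrpl53 is at chr6:83108858-83109137 (plus strand), Mrps7 at chr11:115603890-115604169 (plus), Mrpl55 at chr11:59202236-59202515 (plus) and Mrpl18 at chr17:12916062-12916341 (minus).
Mrpl53: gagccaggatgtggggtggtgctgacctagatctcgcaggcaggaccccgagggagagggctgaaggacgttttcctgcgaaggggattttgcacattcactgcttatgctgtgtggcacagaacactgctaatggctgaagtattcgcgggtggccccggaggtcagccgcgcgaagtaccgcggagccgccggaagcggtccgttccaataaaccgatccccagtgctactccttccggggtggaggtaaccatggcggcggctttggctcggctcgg
Mrps7: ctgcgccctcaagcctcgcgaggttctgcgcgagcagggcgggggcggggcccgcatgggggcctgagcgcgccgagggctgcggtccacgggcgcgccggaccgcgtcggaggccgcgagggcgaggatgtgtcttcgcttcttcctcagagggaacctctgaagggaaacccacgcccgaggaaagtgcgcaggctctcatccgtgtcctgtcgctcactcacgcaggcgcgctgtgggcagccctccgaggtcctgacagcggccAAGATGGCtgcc
Mrpl55: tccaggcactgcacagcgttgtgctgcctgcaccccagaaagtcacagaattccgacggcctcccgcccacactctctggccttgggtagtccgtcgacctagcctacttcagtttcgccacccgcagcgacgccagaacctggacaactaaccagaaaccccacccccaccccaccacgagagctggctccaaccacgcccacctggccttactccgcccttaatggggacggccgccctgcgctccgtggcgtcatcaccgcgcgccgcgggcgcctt
Mrpl18: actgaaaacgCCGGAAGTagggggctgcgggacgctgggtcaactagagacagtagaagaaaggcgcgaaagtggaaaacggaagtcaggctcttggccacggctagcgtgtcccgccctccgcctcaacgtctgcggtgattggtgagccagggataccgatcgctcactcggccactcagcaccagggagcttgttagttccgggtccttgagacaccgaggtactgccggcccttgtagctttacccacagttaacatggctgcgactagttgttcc
The YY1 match of Mrps7 lies 18 bases after its RefSeq start, and the ETS match of Mrpl18 lies 240 bases before its RefSeq start. The windows of Mrpl53 and Mrpl55 hold none of these motifs. GENCODE M21 places some starts elsewhere. Its Mrpl18 gene starts at 12916345 on the minus strand, so the whole window and its match lie inside that gene. Its Mrps7 and Mrpl53 genes start at 115603925 and 83109040, inside their windows. Of 2 others looked at in the same way and not printed, Mrps11 holds a YY1 match 107 bases before its start and Mrpl47 holds no match. RefSeq promoters, taken from 250 bases before to 50 after each start, were found for 68 of the 77 members. An ETS match was in 12 of the 68 (17.6%), against 8.75% of the 9551 tested genes with a promoter in the table and 4.31% of all 27025 genes in it. For NRF1 the numbers were 8 of 68 (11.8%), 5.95% and 3.05%, and for YY1 12 of 68 (17.6%), 5.27% and 3.19%. At least 1 of the 3 motifs was in 29 members, of which 19 have Mrpl and 10 Mrps symbols, and 3 members held more than 1. A match is a description of the letters and not a binding site.

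Large and small subunits were then set against each other, since their proteins are assembled in fixed proportions. As deposited, the median log2 fold change was 0.12 for the 48 large-subunit genes and 0.13 for the 29 small-subunit genes, with 35 and 22 genes higher in CKOs. After scaling the medians were -0.06 and -0.05, with 17 and 8 genes higher. Leaving out control 1 as deposited gave 0.19 for each. Each mouse was also given a score per subunit, in which the log2 values were centred gene by gene and then averaged. The large-subunit score ran from -0.25 in control 2 to 0.42 in control 1 and from -0.15 in CKO 4 to 0.22 in CKO 1. The small-subunit score ran from -0.24 in control 2 to 0.42 in control 1 and from -0.07 in CKO 4 to 0.17 in CKO 2. Within a mouse the large and small scores lay close together, so the libraries differed far more in the level of the whole list than in the balance of the subunits.

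The difference between the large and small scores is nearly free of the scaling of a library. Controls averaged -0.01 ± 0.04 and CKOs 0.01 ± 0.06 (SD, n = 6 each). The groups thus lay 0.02 apart, less than the pooled SD of 0.05, and likewise 0.02 apart without control 1. The extremes were both CKOs, with 0.08 in CKO 1 and -0.08 in CKO 4, and all 6 controls lay between them. The balance between subunits therefore differed by less than the spread between mice. Grouping by place in the ribosome changed little. The products of Mrps30 and Mrps18a sit in the large subunit despite their names, and with both moved and Mrps36 left out the medians as deposited were 0.13 for 50 large-subunit and 0.12 for 26 small-subunit genes.

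**Figure D5:**
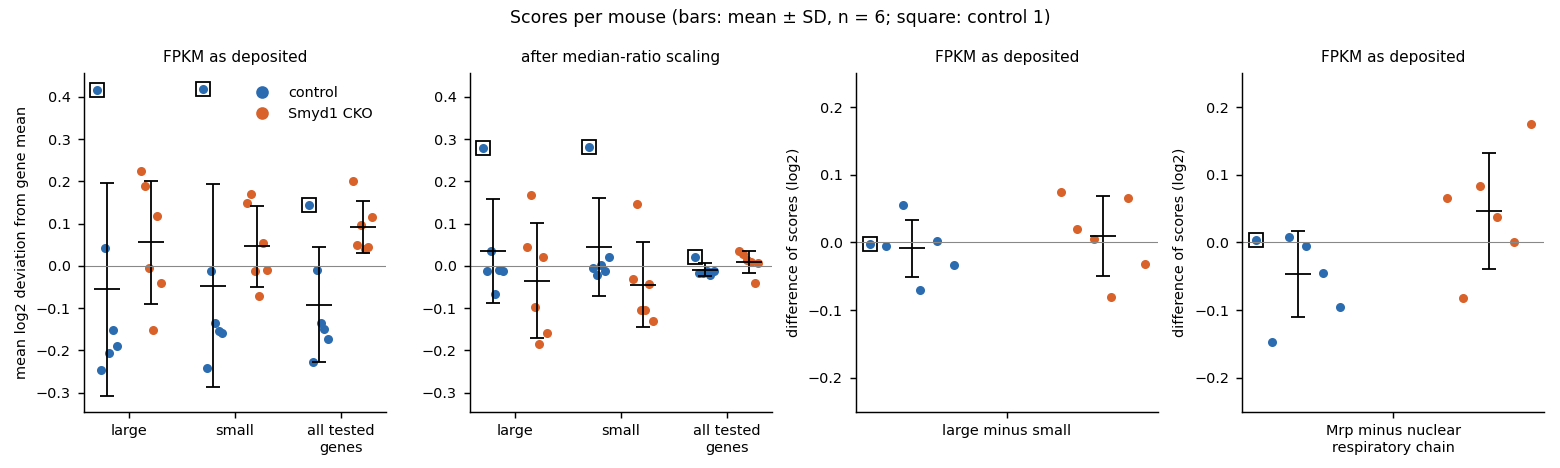
Scores per mouse: mean log2 deviation of large-subunit, small-subunit and all tested genes, as deposited and after median-ratio scaling, then the large minus small score and the score of all members minus that of nuclear respiratory chain genes. Bars are mean ± SD (n = 6), the square marks control 1, and the large minus small differences of both groups lie between -0.08 and 0.08.

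Mrps18a, Mrps18b and Mrps18c are 3 relatives of the single bacterial S18 protein, and their products occupy different places. Mrps18a ran from 8.07 over 10.6 to 11.9 FPKM in controls and from 8.58 over 11.7 to 13.8 FPKM in CKOs. Mrps18c was close to it, from 5.94 over 9.45 to 14.01 FPKM in controls and from 6.67 over 9.32 to 12.5 FPKM in CKOs, while Mrps18b was lower at 0.939 to 2.37 FPKM in controls and 1.48 to 2.59 FPKM in CKOs. Mrps18b shares 30.9% and Mrps18c 13.1% of its 50-base words with other transcripts, whereas Mrps18a shares none. The log2 fold changes as deposited were 0.13 ± 0.15 for Mrps18a, 0.13 ± 0.20 for Mrps18b and 0.00 ± 0.19 for Mrps18c (SE, smallest limma adjusted P of the 3 = 0.628). Mrps30, of the large subunit, ran from 5.69 to 7.10 FPKM in controls and from 5.49 to 9.99 FPKM in CKOs, with 0.13 ± 0.14 (SE, limma adjusted P = 0.593). None of the 4 separated the groups, and all 4 differences were negative after scaling.

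The members can also be ordered by where their products, or the bacterial relatives of these, sit, a grouping made after the values were seen. At the tunnel exit (7 genes, Mrpl23 to Mrpl32 in order of level, 0.181 to 12.3 FPKM) the log2 fold changes as deposited lay between -0.12 and 0.48. Those of the stalk that recruits translation factors, Mrpl10, Mrpl11 and Mrpl12, lay between 0.01 and 0.37. Near the peptidyl transferase centre, Mrpl2, Mrpl3, Mrpl16 and Mrpl27 lay between 0.00 and 0.25. The central protuberance was the widest group, with 5 genes from -0.14 for Mrpl18 to 0.73 for Mrpl48. In the small subunit, Mrps7, Mrps9, Mrps10 and Mrps14 of the head lay between -0.09 and 0.30, Mrps5 and Mrps12 of the messenger path at 0.07 and 0.30, and Mrps6, Mrps11 and Mrps18c of the platform between -0.31 and 0.38. Each of the 7 groups held members that were higher and members that were lower in CKOs after scaling. By descent, the 48 members with a bacterial counterpart had a median of 0.09 and the 28 specific to mitochondria one of 0.16 as deposited, and -0.09 and -0.03 after scaling. Without control 1 these medians were 0.16 and 0.26 as deposited and -0.06 and 0.03 after scaling. With all libraries neither subset held a member past the adjusted threshold.

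Other genes of mitochondrial translation were taken from lists. Of 6 mitoribosomal proteins with other symbols, none passed an adjusted P of 0.05 in limma on either scale. At an unadjusted P below 0.05, 0 passed as deposited, beside 18.1% of tested genes higher and 1.76% lower. After scaling 0 passed, beside 6.62% and 7.44%. Gadd45gip1, a large-subunit protein, averaged 5.54 ± 1.48 FPKM in controls and 6.49 ± 1.59 FPKM in CKOs (SD, n = 6 each, limma adjusted P = 0.518), and Aurkaip1, a small-subunit protein, at 12.99 ± 1.73 and 13.9 ± 1.47 FPKM (limma adjusted P = 0.633). Among 20 genes that charge mitochondrial tRNAs, 1 was higher as deposited at an unadjusted P below 0.05, beside 18.1% of tested genes. At that threshold 0 were lower, beside 1.76%. After scaling 1 was higher, beside 6.62%, and 3 were lower, beside 7.44%. Of the 20 genes, 1 passed the adjusted threshold as deposited and none after scaling, beside 2.29% and 1.47% of all tested genes. This was Nars2, the mitochondrial asparaginyl-tRNA synthetase, which rose from 0.661 ± 0.138 to 1.06 ± 0.124 FPKM (SD, n = 6 each, limma adjusted P = 0.0432). Every CKO value of Nars2 was above every control value, with control 6 (0.928 FPKM) nearest. The groups failed to overlap for 2.42% of all tested genes. After scaling its log2 fold change was 0.45 (limma adjusted P = 0.169), against 0.62 as deposited. The call was also lost when any 1 of 10 of the 12 libraries was left out (adjusted P = 0.052 to 0.105 in these), and held without control 1 or without control 6.

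Translation factors and assembly factors held no gene past the adjusted threshold on either scale, beside 2.29% and 1.47% of all tested genes. Of 15 translation factors and insertion factors, 10 were higher in CKOs as deposited and 5 after scaling. As deposited 0 passed an unadjusted P of 0.05, beside 18.1% of tested genes higher and 1.76% lower. After scaling 4 were lower at that threshold, beside 7.44%. Oxa1l, which inserts new proteins into the inner membrane, had a log2 fold change of 0.23 (limma adjusted P = 0.268) as deposited. Gfm2, the factor that recycles the ribosome, had one of -0.18 (limma adjusted P = 0.29) as deposited and -0.37 (adjusted P = 0.0880) after scaling. It passed with -0.43 (limma adjusted P = 0.0201) when control 1 was left out of the scaled values, beside 2.88% of all tested genes. Of 27 assembly factors 19 were higher as deposited, 3 of them at an unadjusted P below 0.05, beside 18.1% of tested genes. After scaling 9 were higher. At that threshold 2 were then lower, beside 7.44%. The smallest P belonged to Rpusd4, a pseudouridine synthase, at 0.60 (limma adjusted P = 0.157) and Dhx30, an RNA helicase, at 0.39 (limma adjusted P = 0.163) as deposited. Of 13 genes that copy, transcribe or supply nucleotides to mitochondrial DNA, none passed in limma. As deposited 1 was higher unadjusted, beside 18.1% of tested genes, with Rrm2b at 0.27 (limma adjusted P = 0.202) and Mterf1a at 0.19 (limma adjusted P = 0.685).

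Nuclear genes of the respiratory chain and ATP synthase, whose products join those made by the mitoribosome, formed the last comparison. Of 79 such genes 77 were tested. Their median log2 fold change was 0.00 as deposited and -0.19 after scaling, against 0.13 and -0.06 for the members. No respiratory chain gene passed the adjusted threshold on either scale. At an unadjusted P below 0.05, 2 were higher as deposited, beside 18.1% of all tested genes, and 18 were lower after scaling, beside 7.44%, or 14 with control 1 left out as well, beside 9.09%. Cox8a, a cytochrome c oxidase subunit, was at 6.11 ± 1.87 FPKM in controls and 8.99 ± 1.55 FPKM in CKOs (SD, n = 6 each, limma adjusted P = 0.0836), and Uqcr11, of complex III, at 31.5 ± 8.74 and 40.9 ± 7.30 FPKM (limma adjusted P = 0.191). As deposited both passed when control 1 was left out (limma adjusted P = 0.00516 and 0.0232), beside 9.11% of all tested genes. Neither passed after scaling (adjusted P = 0.219 and 0.542), nor when control 1 was left out of the scaled values (adjusted P = 0.0535 and 0.240).

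Subtracting the respiratory chain score from that of the members within each mouse gave means of -0.05 ± 0.06 for controls and 0.05 ± 0.09 for CKOs (SD, n = 6 each). Controls ran from -0.15 in control 2 to 0.01 in control 3, and CKOs from -0.08 in CKO 2 to 0.17 in CKO 6. The groups overlapped, with 4 CKOs above every control and CKO 2 and CKO 5 within the control range. The difference of 0.09 between groups compares with a pooled SD of 0.08, was 0.10 after scaling, 0.10 without control 1 and 0.00012 after quantile normalization, and no P was computed for it. As a share of all FPKM, the members took 0.497% ± 0.0303 in controls and 0.519% ± 0.0427 in CKOs (SD, n = 6 each), and these ranges overlapped as well, at 0.468% to 0.552% and 0.461% to 0.584%.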

How the data were processed

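RNA from tibialis anterior was depleted of ribosomal RNA by the authors, aligned to mm9 with TopHat2 2.0.10, and reads mapping to several places were discarded (build and versions per the submitters' processing notes). The deposited values are FPKM computed by the authors with Cufflinks 2.1.1, 1 file per mouse. The annotation and strand setting are not given in the sources used here, so overlapping genes cannot be told apart. Each file held 23950 rows, of which 27 with a date in place of a symbol were left out.

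FPKM were tested as log2(FPKM + 0.1) with limma 3.58.1 (R 4.3.3) with an intensity trend, for the 12695 genes at 0.1 FPKM or more in at least 6 libraries, with Benjamini-Hochberg adjustment. The code was tested on simulated data. Fold changes on this scale understate those of low genes. Libraries are 6 separate mice per group. Positions, transcripts and shared words came from GENCODE M21 (GRCm38) by symbol, and promoters from RefSeq. The files carry no positions.

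Members and lists were chosen with earlier results of these data known. Named were the 3 members with the smallest P in each direction on each scale, the 5 highest and 5 lowest in level, Mrps18a, Mrps18b, Mrps18c and Mrps30, and from each list the genes past the threshold or else the 2 with the smallest P. Other members are named where a count or group of structural position needed it, after their values were seen. Alternatives were another pseudocount (1), no filter or one at 1 FPKM, quantile normalization, median-ratio scaling, correction for length and GC content, no trend, sample weights, a replicate block, each library left out and subunits by place. Scaling to equal total FPKM, and median-ratio scaling without control 1 or with the block, were chosen after seeing the data.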

Additional observations from a re-analysis of the deposited data

Results flagged for a closer look

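Of 96 groups of 6 values compared with Dixon's criterion, 16 held a sample far from the others, 13 of them control 1. Chance alone gives about 5% of groups. These groups share libraries, and the scores and sums contain the single genes, so they are not independent. That rate therefore cannot judge the 16.

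In control 1 the sum over the 77 members was 864 FPKM, against 558 to 660 FPKM in the other controls. Single genes stood apart in this library in the same direction: Mrpl42 at 47.8 FPKM, Mrpl30 at 32.9 FPKM, Mrpl55 at 21.04 FPKM, Mrpl23 at 0.477 FPKM, Cox8a at 9.84 FPKM and Uqcr11 at 47.95 FPKM. As deposited, the small-subunit score (0.42) and the respiratory chain score (0.41) of control 1 did so too. After median-ratio scaling its large-subunit score was 0.28, its small-subunit score 0.28, the score of all members 0.28 and the score of all tested genes 0.022. Its respiratory chain score, not flagged on that scale, was 0.27. The members and the respiratory chain genes of this library thus both stayed high when the library as a whole had been brought level with the others. The fibroblast, macrophage, fast muscle and erythroid marker sums of this library were also the highest of the 12. The part of these cells in the member values was not tested.

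After scaling, CKO 2 had a small-subunit score of 0.15, above the other CKOs, and CKO 5 a score of -0.041 over all tested genes, below them. For Nars2, control 6 lay at 0.928 FPKM, above the other controls.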

How the results depend on the processing

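No member passed the adjusted threshold under a pseudocount of 1, either filter, median-ratio or quantile scaling, scaling to equal total FPKM, no trend or the replicate block. Sample weights gave 1 higher and the length and GC correction 1 lower. Leaving out 1 library gave 0 to 2 higher and 0 lower, and 1 to 22 higher at an unadjusted P. The 2 and 22 came without control 1, beside 9.11% and 27.2% of all tested genes. Unadjusted counts of members, higher and lower, were 0 and 12 after median-ratio scaling, beside 6.62% and 7.44% of all tested genes. With scaling and control 1 left out they were 0 and 7, beside 8.71% and 9.09%. They were 1 and 7 after quantile normalization, 18 and 0 with sample weights, and 0 and 9 with the length and GC correction. For these settings, the other libraries left out and the replicate block below, shares of all tested genes are not given. Such counts are therefore not read as results about the members. Genes called of all tested, 291 as deposited, were 193 with no filter, 187 after median-ratio scaling, 169 after quantile normalization, 1515 with sample weights, 190 with the length and GC correction, and 106 (without CKO 1) to 1144 (without control 1) with 1 library left out. The causes of these shifts were not tested.

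The large- and small-subunit medians turned negative after median-ratio scaling (-0.059 and -0.054, and -0.041 and -0.039 without control 1), quantile normalization (-0.056 and -0.028) and the length and GC correction (-0.060 and -0.053). These settings remove by construction any shift that most genes of a library share, whatever its source. With 1 library left out they ran from 0.07 to 0.19 for each subunit as deposited. The large minus small difference kept its sign and lay between 0.00 and 0.04 with 1 library left out. The members minus respiratory chain difference, 0.07 to 0.12 with 1 library left out, was 0.00012 after quantile normalization, and the cause was not tested.

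Mouse numbers are shared by the groups. Same-numbered mice deviated together weakly (r = -0.09 to 0.16), and 5 of 12 libraries correlated best with their own number. How many would do so by chance was not computed. No pairing of mice is stated, so the numbers were not taken as pairs. The replicate block gave 0 members past the adjusted threshold, 6 higher at an unadjusted P, and 312 genes in all, with Nars2 at an adjusted P of 0.0677 in limma. Scaling with the block gave 0 and 11 members (unadjusted), 174 genes and medians of -0.059 and -0.054, and the length and GC correction with the block 0 and 10 members, 181 genes and medians of -0.060 and -0.053.

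Among named genes with small differences the sign turned. After median-ratio scaling, with or without the block, Mrps18a was at -0.054, Mrps18b at -0.046, Mrps18c at -0.18, Mrps30 at -0.051 and Aurkaip1 at -0.090, and without control 1 at -0.070, -0.015, -0.12, -0.066 and -0.075. Quantile normalization gave -0.0062, -0.064, -0.13, -0.019 and -0.027, and Mterf1a -0.015. The length and GC correction, with or without the block, gave -0.051, -0.049, -0.17, -0.030 and -0.087. Oxa1l was at -0.018 after scaling without control 1. With 1 library left out Mrps18b ran from -0.044 (control 2) to 0.21 and Mrps18c from -0.13 (control 5) to 0.11, and equal total FPKM gave -0.013 for Mrps18c. Reads per library are unknown, and low members such as Mrpl23 rest on few fragments.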
